A study of Mus musculus with 13 samples.

Results

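The genes described here encode the proteins that coat and form the lipid droplet. They are the 5 perilipins (*Plin1* to *Plin5*), the droplet-fusing protein *Cidec*, and the formation and growth factors *Fitm1*, *Fitm2*, *Bscl2* and *Hilpda*, chosen by name as 10 of the 34419 genes in the deposited count table. RNA came from gluteal white adipose tissue (WAT), a posterior subcutaneous depot, of male C57BL/6J mice. From birth on, 7 mice lived at 22°C and 6 mice at 29°C, which is thermoneutral for mice, and tissue was taken at 13 weeks. In both groups posterior hair was removed after weaning and mice were single housed, so no group with intact fur enters the comparison. Each library, taken here as 1 mouse, holds all the cell types of the depot rather than purified adipocytes.

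Triglyceride is made in the endoplasmic reticulum and buds from it as a droplet that is wrapped in a phospholipid monolayer. Seipin (*Bscl2*) and the FIT proteins (*Fitm1*, *Fitm2*) act at this budding step, perilipins then cover the surface and control the access of lipases, and CIDEC at droplet contacts lets a large droplet take up the content of a small one, which gives the white adipocyte its single large droplet. PLIN1 and PLIN4 are abundant in white fat, PLIN2 and PLIN3 are found in most cells, and PLIN5 is known from heart, muscle and brown fat. *Fitm1* is known mainly from skeletal muscle. *Hilpda* encodes a small inhibitor of the lipase ATGL that is induced by fatty acids and hypoxia.

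Library totals were between 22356637 and 25245785 counts, with 22°C replicates 1 to 5 at or below 22857079 and all other libraries at or above 24821549, so that most of the 22°C group is set apart by total. Mature adipocyte markers were abundant in every library, led by *Car3*, with 15169 to 23497 CPM (counts scaled to library size) at 22°C and 16256 to 25100 CPM at 29°C, and *Cfd*, with 8956 to 14299 CPM and 11316 to 16575 CPM. None of the 16 adipocyte markers passed the threshold used here, beside 1.94% of all tested genes. Of the 16, 11 were lower and 5 higher at 22°C, with a median log2 ratio of -0.13. Transcripts of skeletal muscle were also present. A list of 30 muscle genes, led by *Acta1* and *Myh4*, held 0.110% to 9.42% of a library at 22°C but 0.0176% to 0.888% of one at 29°C, with 22°C replicates 1 (6.93%) and 7 (9.42%) far above the others. In bulk RNA such as this, fewer cells of a type and less RNA per cell cannot be told apart.

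None of the droplet coat and formation genes was called different by housing temperature, and the largest ratios were those of *Fitm1* and *Plin5*. Changes are given as the fitted log2 ratio of 22°C over 29°C (the fold change on the log2 scale) ± SE. By edgeR's quasi-likelihood test and Benjamini-Hochberg adjustment over 17779 genes (P-adj), 0 of the 10 genes passed P-adj below 0.1, where 1.94% of all tested genes did. All 10 genes were abundant enough to be tested. At an unadjusted p below 0.05 there were 3 genes, *Plin5* and *Fitm1* with higher and *Plin3* with lower values at 22°C, beside 18.5% of all tested genes. With DESeq2, the tool named in the study's methods, *Plin5* was the single member that passed, beside 10.2% of all genes with an adjusted p in that tool (5.58% with higher values at 22°C), and with limma on the deposited log2 values none did, beside 2.0% of all genes. No member separated the groups, as 1.24% of all tested genes did. The median log2 ratio of the 10 genes was 0.025, against 0.0074 over all genes tested.

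**Figure D1:**
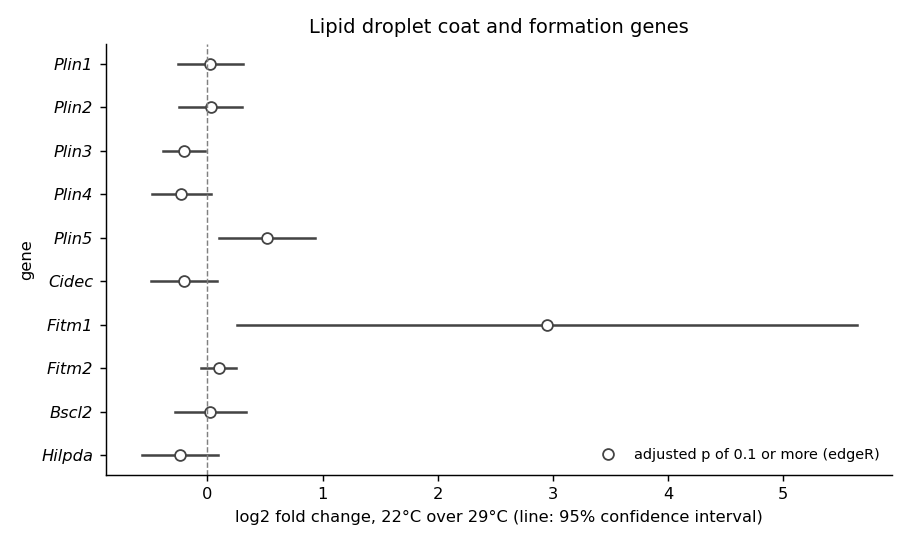
Log2 ratio of each lipid droplet gene (circle) with its 95% confidence interval (line), mice at 22°C over mice at 29°C; open circles mark P-adj of 0.1 or more. The intervals of *Plin1*, *Plin2*, *Plin4*, *Cidec*, *Fitm2*, *Bscl2* and *Hilpda* cross 0. That of *Plin3* spans -0.38 to -0.024, that of *Plin5* spans 0.10 to 0.93, and that of *Fitm1* is the widest, from 0.25 to 5.64.

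Levels of different genes were compared per kilobase of exon, with lengths from the GENCODE M21 annotation. *Cidec* was the highest of the 10, with 1140 ± 220 CPM per kb at 22°C (SD, n = 7) against 1313 ± 102 CPM per kb at 29°C (SD, n = 6). *Plin1* and *Plin4* followed and lay within their SD of each other at 22°C, at 535 ± 88.5 and 520 ± 71.6 CPM per kb, and at 29°C they were 526 ± 78.4 and 609 ± 71.2 CPM per kb. *Plin2*, *Fitm2* and *Bscl2* formed a middle group between 61.9 and 64.5 CPM per kb at 22°C and between 58.7 and 63.3 CPM per kb at 29°C. Below them came *Plin3*, at 15.9 ± 1.80 CPM per kb at 22°C, and then *Plin5* and *Hilpda*, at 4.68 ± 1.03 and 4.37 ± 0.931 CPM per kb, within their SD of each other. At 29°C *Plin3* was at 18.3 ± 1.79 CPM per kb, and *Plin5*, at 3.26 ± 0.947, was below *Hilpda*, at 5.17 ± 0.701 CPM per kb, by more than either SD. *Fitm1* had no fixed place, with 0.655 to 18.2 CPM per kb in 5 libraries at 22°C, 65.1 CPM per kb in replicate 1 and more in replicate 7, and 0 to 7.70 CPM per kb at 29°C. Summed, the 10 genes held 0.624% to 0.958% of each library at 22°C and 0.899% to 1.03% at 29°C, and the 22°C libraries with the most muscle transcripts, replicates 1 and 7, were the lowest of all, at 0.624% and 0.683%.

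*Plin1* (ENSMUSG00000030546.15), the perilipin that guards the adipocyte droplet and releases the lipase coactivator ABHD5 once it is phosphorylated, had a lowest value of 2047, a median of 2430 and a highest of 3297 CPM at 22°C. At 29°C the lowest was 2074, the median 2418 and the highest 3067 CPM. The groups overlapped almost completely. The log2 ratio was 0.024 ± 0.13 (edgeR P-adj = 0.944), with a 95% confidence interval for the fold of 0.837 to 1.24. *Plin4* (ENSMUSG00000002831.15), which is thought to coat small, newly made droplets, had 2438, 3004 and 3444 CPM as lowest, median and highest at 22°C and 3031, 3418 and 4067 CPM at 29°C. Of the 7 mice at 22°C, 4 were below every mouse at 29°C. Its log2 ratio of -0.23 ± 0.12 did not pass (edgeR P-adj = 0.324), and the interval of the fold was 0.716 to 1.02.

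*Plin2* (ENSMUSG00000028494.13), a ubiquitous coat protein that is degraded when it is not bound to lipid, had a lowest, median and highest value of 193, 208 and 293 CPM at 22°C and of 175, 217 and 290 CPM at 29°C. Its log2 ratio was 0.027 ± 0.13 (edgeR P-adj = 0.934). *Plin3* (ENSMUSG00000024197.11), a soluble perilipin that moves onto nascent droplets, had 51.9, 60.8 and 72.3 CPM at 22°C and 60.9, 70.7 and 77.4 CPM at 29°C. Here 6 of 7 mice at 22°C were below the median at 29°C and 4 were below every mouse at 29°C. The log2 ratio of *Plin3* was -0.20 ± 0.083 (edgeR P-adj = 0.221), and among the libraries with higher totals, only 2 of which are from 22°C, it was -0.071 (edgeR P-adj = 0.841).

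*Plin5* (ENSMUSG00000011305.12), which ties droplets to mitochondria, was the perilipin with the largest fold change and the lowest level. Its lowest, median and highest values were 7.14, 9.86 and 13.2 CPM at 22°C and 4.63, 6.51 and 9.75 CPM at 29°C, from 123 to 292 counts per library. All 7 mice at 22°C were above the median at 29°C and 4 were above every mouse at 29°C, while 29°C replicates 1 and 5 lay within the 22°C range. The log2 ratio was 0.52 ± 0.19, a fold of 1.43 with a 95% confidence interval of 1.07 to 1.91, and P-adj was 0.193 with edgeR and 0.0967 with DESeq2. Dropping 1 mouse at a time gave values from 0.43 to 0.65 and edgeR P-adj from 0.150 to 0.319. Among the libraries with higher totals the log2 ratio was 0.25 (edgeR P-adj = 0.756). *Plin5* is also made by muscle and brown fat, so markers of both are set beside it. All 30 muscle genes had a fitted ratio above 0, with a summed level of 1054 to 107352 CPM at 22°C and 186 to 8606 CPM at 29°C. Of them 0 passed, beside 1.94% of all tested genes, and 23 had an unadjusted p below 0.05 (edgeR), beside 18.5%. The groups overlapped, as 22°C replicates 3, 5 and 6 held fewer muscle counts (0.110% to 0.166%) than 29°C replicates 1, 4 and 5 (0.308% to 0.888%). With a covariate for muscle content, a score per library equal to the average log2 CPM over these 30 genes, the log2 ratio of *Plin5* was 0.47 (edgeR P-adj = 0.430). A list of 15 genes of brown and beige fat had 14 abundant enough for the test, of which 10 were higher at 22°C. *Cidea*, *Otop1* and *Cox8b* passed, all higher, beside 0.731% of all tested genes. Among the libraries with higher totals, *Cidea* did not pass, and 1 of all tested genes passed with higher values at 22°C. The same held with the group of library totals (lower or higher) as a covariate. The 15 genes together summed to 96.6 to 410 CPM at 22°C and 68.6 to 113 CPM at 29°C. Within that sum, *Cox8b* spanned 21.2 to 111 CPM at 22°C and 4.79 to 19.7 CPM at 29°C. The part of muscle transcripts in these brown and beige fat values was not tested. *Ucp1*, which defines brown fat, had at most 7 counts in a library at 22°C and 0 in each library at 29°C, which allows up to 0.126 CPM there. The part of brown fat genes in the *Plin5* values was not tested.

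**Figure D2:**
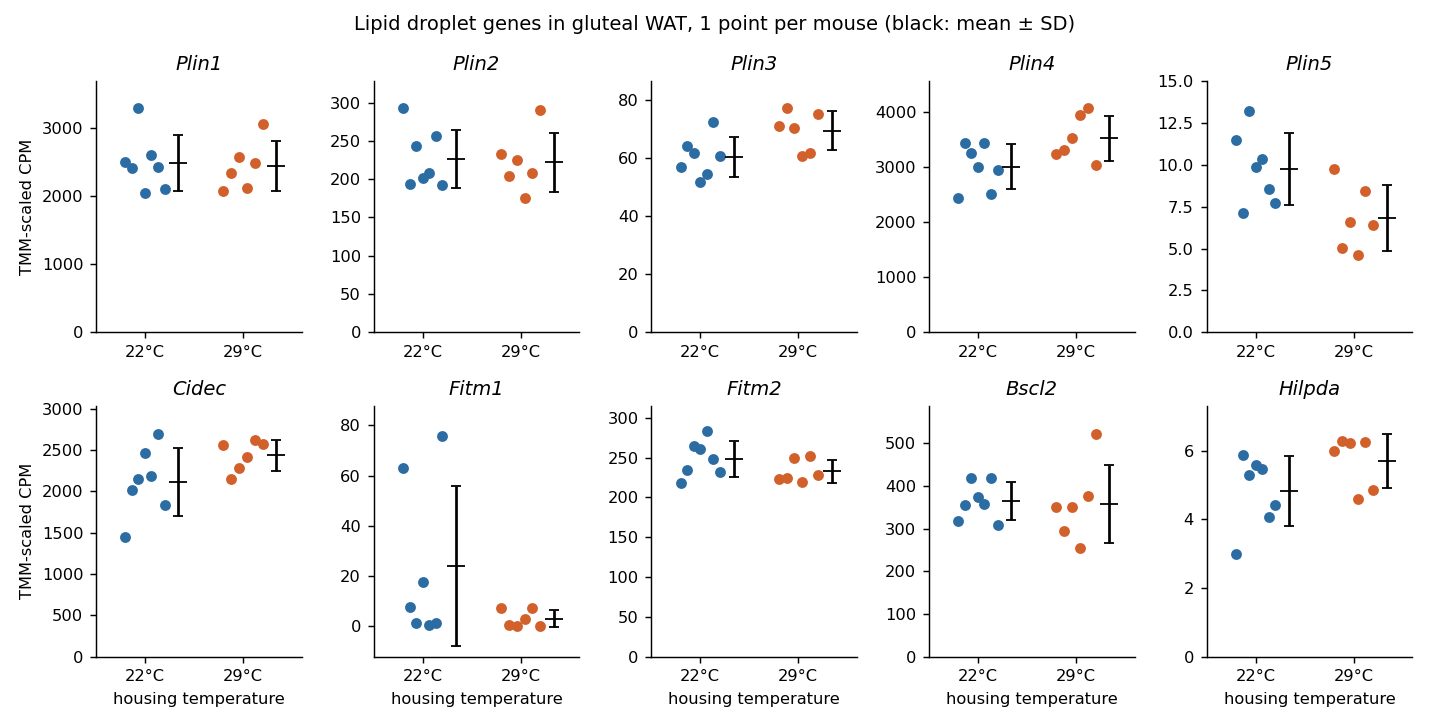
Level of each of the 10 droplet genes in every mouse (points; CPM on TMM-scaled library sizes) at 22°C (blue) and 29°C (orange), with the mean ± SD of each group in black. The groups overlap for every gene, all 7 mice at 22°C are above the 29°C median for *Plin5* and below it for *Hilpda*, and *Fitm1* is spread by 2 libraries at 22°C with 63.2 and 75.7 CPM.

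Within the perilipins, the make-up of the pool was described as the share of each gene in the summed counts per kb. *Plin1* made up 46.8 ± 3.86% at 22°C (SD, n = 7) against 43.0 ± 4.63% at 29°C (SD, n = 6). *Plin4* made up 45.7 ± 4.71% and 50.0 ± 5.38%. In both cases the group means differed by less than the SD. *Plin2* accounted for 5.72 ± 1.20% and 5.20 ± 0.874%, and *Plin3* for 1.41 ± 0.223% and 1.51 ± 0.207%. *Plin5* was the smallest part, with 0.287% to 0.518% (median 0.401%) at 22°C and 0.184% to 0.426% (median 0.245%) at 29°C, and its ranges overlapped. No test was made of these shares.

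**Figure D3:**
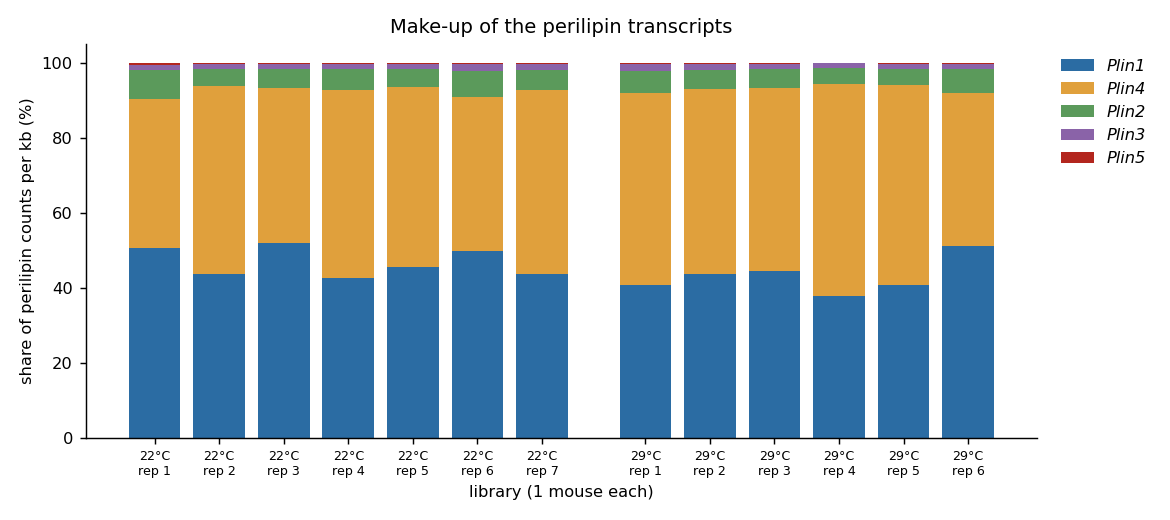
Share of each perilipin in the summed perilipin counts per kb (stacked bars, percent) in the 7 libraries at 22°C and the 6 libraries at 29°C. *Plin1* and *Plin4* fill most of every bar, and the *Plin1* share lies between 37.7% and 51.9%.

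*Cidec* (ENSMUSG00000030278.12) had a lowest value of 1448, a median of 2154 and a highest of 2700 CPM at 22°C, and 2150, 2493 and 2627 CPM at 29°C. The lowest 22°C libraries were replicate 1 with 1448 CPM and replicate 7 with 1840 CPM, the same libraries that held the most muscle transcripts. The log2 ratio was -0.20 ± 0.13 (edgeR P-adj = 0.435), and without both of these libraries, an alternative chosen after the data were seen, it was -0.082 (edgeR P-adj = 0.739). *Cidec* stood in contrast to its family member *Cidea* (ENSMUSG00000024526.10), which is abundant in brown fat. *Cidea* was between 4.07 and 24.7 CPM at 22°C and between 1.39 and 3.17 CPM at 29°C, with a log2 ratio of 2.51 ± 0.40 (edgeR P-adj = 0.0199). The third member, *Cideb*, a protein of liver and intestine, had at most 14 counts in a library and was not tested. The difference between the *Cidec* and *Cidea* fold changes was not tested.

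The FIT proteins bind triglyceride and are needed for droplets to leave the endoplasmic reticulum. *Fitm2* (ENSMUSG00000048486.7), the form of fat and most other tissues, varied least of the 10 genes within a temperature (coefficient of variation 9.05% at 22°C and 6.25% at 29°C), with 219, 248 and 283 CPM as lowest, median and highest at 22°C and 219, 226 and 252 CPM at 29°C. Its log2 ratio was 0.096 ± 0.072 (edgeR P-adj = 0.507), and the interval of the fold ran from 0.960 to 1.19. *Fitm1* (ENSMUSG00000022215.7) had 0.636, 7.77 and 75.7 CPM at 22°C and 0, 1.68 and 7.47 CPM at 29°C, where the library at 0 (replicate 6) allows up to 0.126 CPM. The 4 highest values at 22°C were above every mouse at 29°C, and the other 3 lay within the 29°C range. The log2 ratio of *Fitm1* was 2.94 with an SE of 1.25 (edgeR P-adj = 0.234), and without both 22°C libraries of highest muscle score it was 0.89 (edgeR P-adj = 0.751).

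The level of *Fitm1* rose with the muscle score of the library. Over the 13 libraries, the log2 CPM of *Fitm1* and the muscle score had a Pearson r of 0.991 and a Spearman rho of 0.978 (two-sided permutation tests, p = 1e-05 for each, the smallest that 100000 resamples can give; P-adj = 1e-04 over 10 genes). Without the 2 libraries farthest from the median score r was 0.985, and within a temperature it was 0.997 at 22°C and 0.979 at 29°C. With the score as a covariate, the log2 ratio of *Fitm1* went to -0.22 (edgeR P-adj = 0.768). For every 10000 counts of the muscle list, *Fitm1* had 6.03 to 10.2 counts at 22°C (median 7.74) and 0 to 14.0 counts at 29°C (median 8.77), where both 29°C extremes come from libraries with 15 counts of *Fitm1* or fewer. None of the other 9 genes passed P-adj below 0.05 for this relation. *Plin3* had r = -0.59 (permutation test, p = 0.0310; P-adj = 0.138; rho = -0.60, p = 0.0325), with r = -0.28 at 22°C and r = -0.65 at 29°C. *Plin1* had r = -0.56 (permutation test, p = 0.0453; P-adj = 0.138; rho = -0.55, p = 0.0556) and kept the sign within each temperature, with r = -0.60 at 22°C and r = -0.77 at 29°C. *Cidec* had r = -0.54 (permutation test, p = 0.0551; P-adj = 0.138; rho = -0.34, p = 0.254), but within temperatures r was -0.68 at 22°C and 0.29 at 29°C, and without the 2 farthest libraries r fell to -0.19. *Plin5* had r = 0.40 (permutation test, p = 0.169; P-adj = 0.282; rho = 0.39, p = 0.188), with r = -0.22 at 22°C and r = 0.49 at 29°C.

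**Figure D4:**
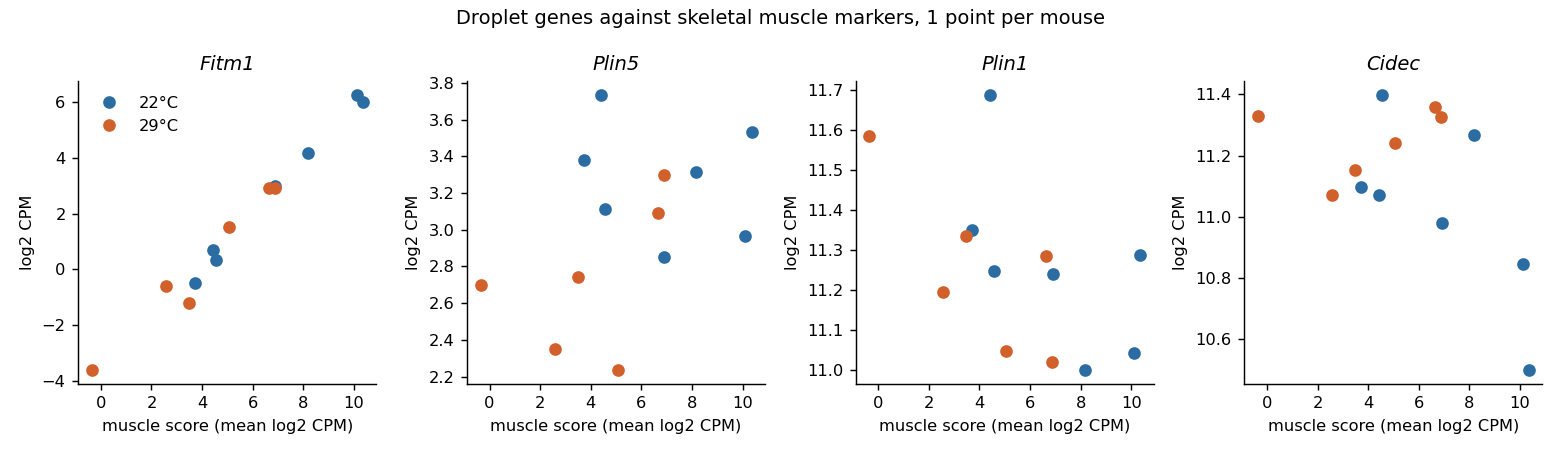
Log2 CPM of *Fitm1*, *Plin5*, *Plin1* and *Cidec* (vertical axes, each with its own scale) against the muscle score of the library (mean log2 CPM of 30 skeletal muscle genes), 1 point per mouse, 22°C in blue and 29°C in orange. *Fitm1* rises with the score in both groups (r = 0.991 over all 13 libraries). *Plin1* has r = -0.60 at 22°C and r = -0.77 at 29°C, whereas *Plin5* and *Cidec* change sign between the temperatures. Of these genes, only *Fitm1* passed P-adj below 0.05 for the relation over all libraries (permutation test).

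The proximal promoters of these 4 genes are shown because these are the genes plotted against the muscle score. They were taken from RefSeq (GRCm38.p6, not the GRCm39 build of the count files), which held promoters of all 10 genes, 15 in total, each with 250 bases before and 50 bases after the start site. The first listed promoter of each is given at *Fitm1* chr14:55575424-55575723 (plus strand), *Plin5* chr17:56117499-56117798 (minus strand), *Plin1* chr7:79732727-79733026 (minus strand), *Cidec* chr6:113435711-113436010 (minus strand), 5′ to 3′, with capitals marking the letters CAGCTG, an E-box of the kind bound by the muscle factor MyoD.
Fitm1: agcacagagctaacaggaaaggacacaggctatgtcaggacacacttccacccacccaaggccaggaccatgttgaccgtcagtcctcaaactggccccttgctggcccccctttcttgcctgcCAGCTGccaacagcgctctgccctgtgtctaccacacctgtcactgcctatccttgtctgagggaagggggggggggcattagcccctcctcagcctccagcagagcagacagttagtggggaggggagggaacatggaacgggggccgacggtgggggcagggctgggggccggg
Plin5: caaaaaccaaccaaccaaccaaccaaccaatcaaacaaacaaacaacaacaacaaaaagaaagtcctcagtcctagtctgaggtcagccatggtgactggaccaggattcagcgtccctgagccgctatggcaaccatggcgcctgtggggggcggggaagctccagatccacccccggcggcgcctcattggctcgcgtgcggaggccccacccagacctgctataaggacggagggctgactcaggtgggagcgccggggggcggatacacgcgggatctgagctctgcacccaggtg
Plin1: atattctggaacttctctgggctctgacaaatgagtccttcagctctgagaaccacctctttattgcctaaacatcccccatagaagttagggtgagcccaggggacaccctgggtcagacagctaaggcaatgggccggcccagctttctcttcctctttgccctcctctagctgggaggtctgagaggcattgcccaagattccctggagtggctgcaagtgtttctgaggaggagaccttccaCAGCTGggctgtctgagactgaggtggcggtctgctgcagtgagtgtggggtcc
Cidec: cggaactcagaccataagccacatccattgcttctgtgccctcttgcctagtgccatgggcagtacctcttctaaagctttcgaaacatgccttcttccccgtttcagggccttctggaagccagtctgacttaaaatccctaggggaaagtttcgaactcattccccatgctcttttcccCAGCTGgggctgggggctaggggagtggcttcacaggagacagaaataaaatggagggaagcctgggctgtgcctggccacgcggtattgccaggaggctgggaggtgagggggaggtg
This motif, which reads the same on both strands, was found in 5 of the 15 promoters, 1 each of *Plin1*, *Plin2*, *Plin5*, *Cidec* and *Fitm1*, and in 16.3% of all 32851 promoters of that length. In *Fitm1* it begins at position -126 relative to the start site, and *Plin5* holds it in its second promoter only. The hypoxia element ACGTG was found in *Plin2*, on both strands of CACGTG, and in the second promoter of *Hilpda*, 2 of the 15, against 19.6% of all promoters. Neither the PPAR element, a pair of AGGNCA with 1 free base between them (0.381% of all promoters), nor the MEF2 letters, CTA and TAG with 4 free bases between them (3.69%), nor TATAAA (13.6%) occurred in any of the 15, with both strands searched. A match describes letters only.

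*Bscl2* (ENSMUSG00000071657.13), which encodes seipin and is mutated in a congenital lipodystrophy, had 309, 359 and 420 CPM as lowest, median and highest at 22°C and 256, 351 and 522 CPM at 29°C. All mice at 22°C lay within the 29°C range. Its log2 ratio was 0.026 ± 0.14 (edgeR P-adj = 0.947), with an interval of the fold of 0.821 to 1.26. In the annotation, 239 exon bases of *Bscl2* are shared with *AC129217.1* on the same strand, whose counts were 18.6% to 24.3% of those of *Bscl2*, so part of the reads could belong to either. *Hilpda* (ENSMUSG00000043421.9) was low, with 3.004, 5.30 and 5.87 CPM at 22°C and 4.59, 6.11 and 6.29 CPM at 29°C, from 57 to 163 counts. All 7 mice at 22°C were below the median at 29°C and 3 were below every mouse at 29°C. Its log2 ratio of -0.24 ± 0.15 did not pass (edgeR P-adj = 0.425). *Fitm1* and *Fitm2* each overlap an antisense gene by 109 and 227 exon bases. The strand setting of the counts is not given in the sources used here, and the antisense gene of *Fitm1*, *Gm15932*, reached 42.1 CPM in a library at 22°C and stayed between 10.6 and 12.7 CPM at 29°C.

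Other genes that act on the droplet were counted from a list of 27, of which 25 were tested. *Cidea* was the only one that passed (1 of 25, beside 1.94% of all tested genes), and this call was lost among the libraries with higher totals and with the library-total cluster as a covariate. Of the 25, 15 had higher and 10 lower values at 22°C, with a median log2 ratio of 0.053. None of the enzymes of triglyceride synthesis and breakdown passed. *Pnpla2*, which encodes ATGL, had a log2 ratio of -0.075 ± 0.15 (edgeR P-adj = 0.825), *Lipe*, which encodes hormone-sensitive lipase, of 0.053 ± 0.13 (edgeR P-adj = 0.867), and *Abhd5*, the coactivator that PLIN1 holds, of -0.20 ± 0.16 (edgeR P-adj = 0.542). *Dgat1* and *Dgat2*, both of which make the last bond of triglyceride, had 0.30 ± 0.15 and -0.34 ± 0.20 and did not pass. *Ldaf1*, the partner of seipin, had -0.16 ± 0.14 (edgeR P-adj = 0.575). The caveola genes *Cav1* and *Cavin1*, whose loss also causes lipodystrophy, had -0.43 ± 0.12 (edgeR P-adj = 0.127) and -0.37 ± 0.11 (edgeR P-adj = 0.144). For *Cavin1*, every mouse at 22°C, between 623 and 1037 CPM, was below every mouse at 29°C, between 1058 and 1269 CPM, a separation that 1.24% of all tested genes showed in either direction.

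**Figure D5:**
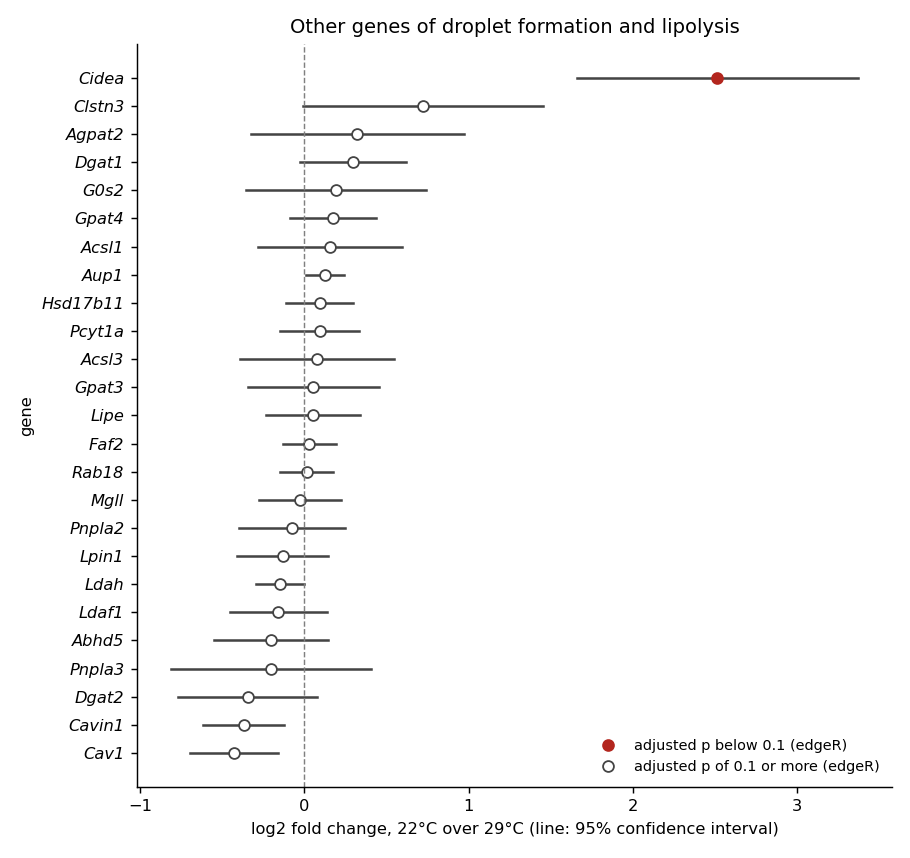
Log2 ratio (circle) and 95% confidence interval (line), mice at 22°C over mice at 29°C, of 25 other genes of droplet formation and lipolysis, ordered by fold change. *Cidea* at 2.51 is the only gene with P-adj below 0.1 (filled), and *Cav1* and *Cavin1* are the lowest, at -0.43 and -0.37.

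Genes that share regulators with the droplet coat were set beside it. Of 20 target genes of PPAR, the nuclear receptor family that switches on several perilipins and *Cidec*, 13 were higher and 7 lower at 22°C, with a median log2 ratio of 0.093. Only *Slc25a20*, the mitochondrial carnitine and acylcarnitine carrier, passed, with 64.3 ± 6.58 CPM at 22°C (SD, n = 7) against 45.7 ± 3.83 CPM at 29°C (SD, n = 6) (log2 ratio 0.49 ± 0.075; edgeR P-adj = 0.0174). This is 1 of 20, beside 1.94% of all tested genes, and the call was likewise lost in both fits that account for library totals. Of 17 hypoxia-inducible genes, 16 were tested, 9 were higher and 7 lower, with a median of 0.078. The 2 that passed, *P4ha1* and *P4ha2*, encode collagen prolyl hydroxylase subunits and were lower at 22°C, with log2 ratios of -0.44 ± 0.11 (edgeR P-adj = 0.0873) and -0.35 ± 0.089 (edgeR P-adj = 0.0924), where 1.21% of all tested genes passed with lower values. At an unadjusted p below 0.05 there were 11 of the 16, 5 higher and 6 lower at 22°C, beside 18.5% of all tested genes. Leaving out any of 11 single mice left 0 calls, and without 22°C replicate 4 there was 1.

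Other cell types of the depot make *Plin2*, *Plin3* and *Hilpda*, too. None of 15 macrophage, 12 endothelial, 10 progenitor and 6 tested epithelial marker genes passed (edgeR), beside 1.94% of all tested genes. Unadjusted p was below 0.05 for 2, 2, 3 and 0 of them, beside 18.5% of all tested genes. The median log2 ratios were -0.12, -0.097, -0.15 and -1.44. The summed level of the macrophage genes was 758 to 1534 CPM at 22°C and 843 to 1620 CPM at 29°C, and that of the endothelial genes 625 to 851 CPM and 635 to 918 CPM. Progenitor genes summed to 1155 to 2086 CPM and 1297 to 2274 CPM, and the 11 epithelial genes to 1.35 to 66.3 CPM and 2.09 to 280 CPM. The most abundant genes of each list had log2 ratios of 0.0076 (*Lyz2*) and 0.079 (*Csf1r*), -0.15 (*Pecam1*) and -0.11 (*Cdh5*), -0.57 (*Col15a1*) and -0.17 (*Pi16*), and -1.98 (*Krt5*) and -2.44 (*Krt14*). Their part in the droplet gene values was not tested.

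The genes whose level varied most like each droplet gene from mouse to mouse were found by Pearson r of log2 CPM over the 13 libraries, after group means were subtracted, among all genes tested. These r are descriptions of the highest of 17778 values and have no test. For *Fitm1* they were *Hrc*, *Tmod4* and *Art1*, all with r = 0.99. For *Plin1* they were *Mief1* (r = 0.970), *Gm17233* (r = 0.941) and *Stk39* (r = 0.931), and for *Plin2* *Atad3a* (r = 0.969), *Hsd17b12* (r = 0.967) and *Mtch2* (r = 0.965). *Cidec* varied most like *Zfp503* (r = 0.955), *Ccl19* (r = 0.946) and *Cers2* (r = 0.939). *Bscl2* was closest to *AC129217.1* (r = 0.953), the gene that shares its exon bases, then to *Alad* (r = 0.950) and *Glrx5* (r = 0.927). The closest genes to *Plin5* were *Suclg2* (r = 0.897), *Hist1h2bb* (r = 0.876) and *AI597479* (r = 0.845). For *Plin3* they were *Tmem141* (r = 0.894), *Dcps* (r = 0.891) and *Garnl3* (r = 0.880), and for *Plin4* *Endou* (r = 0.873), *B930092H01Rik* (r = 0.868) and *Gm2895* (r = 0.854). *Fitm2* varied most like *Gm48582* (r = 0.869), *Baz1b* (r = 0.852) and *Asns* (r = 0.847), and *Hilpda* like *Ccdc149* (r = 0.908), *Gm15518* (r = 0.900) and *Gm37969* (r = 0.891). No droplet gene was among the 3 closest genes of another.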

How the data were processed

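RNA of gluteal WAT from 7 mice at 22°C and 6 mice at 29°C was grouped by the submitters' labels. Per the submitters' processing notes, the authors aligned reads with STAR 2.7.5a to GRCm39 and counted them with featureCounts; the strand setting and annotation are not given in the sources used here. The authors deposited raw counts per gene and regularized log2 values made with DESeq2. Identifiers were matched without version to symbols (34006 of 34419 genes). No pair of libraries agreed within sampling noise. The labels give replicates by number only, so p-values measure the spread between these 13 libraries.

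Counts were tested with edgeR 4.0.16 in R 4.3.3 (TMM, filterByExpr, quasi-likelihood F test, no covariate, Benjamini-Hochberg over 17779 genes, P-adj below 0.1 as in the study). SE is the log2 fold change divided by the root of F, and intervals are 95% from SE. CPM use TMM-scaled library sizes; log2 CPM use a prior count of 2. A count of 0 allows 3 counts (0.113 to 0.158 CPM), counting error only. Relations to the muscle score used 100000 permutations. The test was also run on simulated counts, drawn for each gene on its own. That simulation held no shared muscle content or replicate factor, so it does not bear on them. The 10 genes and all lists were chosen with earlier results of these data known. Named genes are the 10, list genes that passed or else the 2 most abundant of a list, and the 3 most alike. *Cideb*, *Ucp1*, *Pnpla2*, *Lipe*, *Abhd5*, *Dgat1*, *Dgat2*, *Ldaf1*, *Cav1*, *Cavin1* and *Gm15932* were added after their values were seen. Alternatives were DESeq2 1.42.0, DESeq2 size factors or upper-quartile scaling in edgeR, no filter, a mean of at least 10 counts, robust dispersions, the replicate number as a block, each mouse left out, the muscle score, adipocyte score or library-total cluster as a covariate, muscle genes removed, libraries with higher totals only, limma 3.58.1 on the deposited log2 values, P-adj below 0.05, a prior count of 0.5, and raw counts for the perilipin shares; leaving out both libraries of highest muscle score was added after seeing the data.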

Additional observations from a re-analysis of the deposited data

How the results depend on the processing

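The count of droplet genes that passed was 0 in all fits run except DESeq2, where it was 1 (*Plin5*). Signs turned for 4 of the 10 genes. *Plin1* went to -0.12 with libraries of higher totals only and -0.11 with the library-total cluster as a covariate, *Plin2* to -0.017 without both libraries of highest muscle score, and *Fitm1*, which had the largest ratio, to -0.22 with the muscle score as a covariate. With each mouse left out, the log2 fold change was -0.057 to 0.10 for *Plin1*, -0.044 to 0.12 for *Plin2* and -0.056 to 0.16 for *Bscl2*; the other 7 genes kept their sign. The causes were not tested.
Over all genes tested, 345 passed (130 higher, 215 lower), with 1676 for DESeq2 (914 higher, 762 lower), 8 for higher totals only, 4 with the library-total cluster, 41 with the muscle score, 42 with no filter, 40 at P-adj below 0.05 (11 higher, 29 lower) and 32 to 652 with each mouse left out (32 without 29°C replicate 3, 652 without 22°C replicate 6).
Of the 27 other droplet genes listed, 3 passed with DESeq2, beside 10.2% of all genes with an adjusted p in that tool. There were 0 with higher totals only or the cluster, and 1 to 3 with a mouse left out (3 without 22°C replicate 6). Of the 20 PPAR targets, 3 passed with DESeq2, beside the same 10.2%. There were 0 with higher totals only or the cluster, and 1 with each mouse left out. Of the 17 hypoxia genes listed, 5 passed with DESeq2, beside the same 10.2%. There were 0 with higher totals only, the cluster, the muscle score, no filter, P-adj below 0.05 or without both libraries of highest muscle score. With a mouse left out, 0 to 3 passed (3 without 22°C replicate 6).
Genes related to the muscle score numbered 1 to 2 with a mouse left out (2 without 22°C replicate 5). With raw counts in place of counts per kb, the mean share over the 13 libraries was 53.9% for *Plin4* (47.7% per kb), 3.78% for *Plin2* (5.48%), 1.08% for *Plin3* (1.46%) and 0.141% for *Plin5* (0.345%).
Replicate numbers are shared between groups, and the labels do not say what they mark. Deviations of same-numbered libraries had correlations of 0.051 to 0.513, and 4 of 6 libraries at 22°C matched their own number best. This is a hint from the data of a shared factor. The main fit has no block because the labels name no pairs, and pairing is not shown to be absent. With the replicate block, 214 genes passed over all tested, 0 of the 10 droplet genes, 2 of the other droplet genes and 0 of the hypoxia genes. In that fit *Fitm1* had 2.19, *Plin5* 0.59 (edgeR P-adj = 0.121) and *Plin3* -0.21 (edgeR P-adj = 0.123). The last 2 were closer to the threshold than without the block, at 0.193 and 0.221.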
